A study of Rattus norvegicus with 14 samples.

Results

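Neonatal rat ventricular myocytes that had been exposed to phenylephrine (PE) for 48 h in the presence of JQ1 were compared with cells that had never been stimulated. The comparison addressed how much of the hypertrophic gene programme was still above its starting level under JQ1, and which genes lay below that level. The arrays were chosen by their labels: 6 of the 14 arrays in the series, 3 of JQ1 with PE at 48 h and 3 of unstimulated cells. The cells came from 2-day-old Sprague-Dawley pups, were enriched for myocytes by a pre-plating step that removes adherent other cells, and were kept without serum. The unstimulated group received the vehicle DMSO for 90 min and no PE. The JQ1 group received JQ1 and 100 µM PE, and 3 arrays of DMSO with PE at 48 h are given beside them where they show the hypertrophic level itself. JQ1, PE and the time in culture therefore differ together between the groups compared, and their parts cannot be told apart. The DMSO with PE arm differs from the unstimulated arm in both PE and time in culture, so those parts cannot be told apart either, and "PE alone" and "with PE" below name that arm and not an effect of PE by itself. By the treatment protocol JQ1 or vehicle went on 6 h ahead of PE, by the series design PE went on first, so the order is unsettled here. The dose of JQ1 is not given in the sources used here. Whether a group's arrays stem from independent cultures is not stated, and each p-value therefore reflects the array-to-array spread alone, which could be technical.

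PE activates alpha1-adrenergic receptors, and through Gq, calcium and MAP kinase signalling it makes cultured myocytes enlarge and return to a fetal pattern of gene expression, with natriuretic peptides, skeletal alpha-actin and beta-myosin heavy chain as its classical markers. BET proteins such as BRD2 read acetylated histones through bromodomains and help paused RNA polymerase II into productive elongation through the kinase complex P-TEFb. JQ1 occupies the bromodomains and displaces BET proteins from chromatin.

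Expression was measured for 13184 genes, each by its brightest probe set, as deposited log2 values. Arrays of a group correlated at 0.9976 or more across probe sets. The medians of the JQ1 arrays at 48 h lay between 7.28 and 7.31 and those of the unstimulated arrays between 7.39 and 7.42. A group mean under log2 6.23, the 30th percentile of gene means, is called dim here, and the size of a change to or from a dim level is uncertain. Each change is a log2 difference ± its limma SE with 3 arrays a group, and rose, fell, raised and lowered are used of genes with an adjusted p under 0.05. The cells showed the markers of their label: all 17 measured cardiomyocyte markers were above the dim limit in each group. Their summed linear signal ran from 216449 to 220539 in unstimulated arrays and from 220361 to 224794 under JQ1 with PE. With DMSO and PE it ran from 239191 to 240900. Single markers moved both ways: with JQ1 and PE 9 of the 17 were raised (52.9%) and 6 lowered (35.3%), 2 of these at least 2-fold. The shares over all genes were 31.6% and 29.2%. Of 14 endothelial markers 9 were dim at the start, of 17 leukocyte markers 10, and of 18 fibroblast markers 1 (Col6a3). Where a gene is given with its change but without its arrays, it may be a list member that was picked for mention after its values were seen.

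Against unstimulated cells, JQ1 with PE at 48 h raised 4171 genes (31.6% of those tested) and lowered 3846 (29.2%), with a median change over all genes of 0.03. The large changes were mostly losses: 732 genes were lowered at least 2-fold (5.55%) and 155 raised at least 2-fold (1.18%). The 3 JQ1 arrays did not overlap the 3 unstimulated arrays for 8688 genes (65.9%). With arrays centred on their medians the same comparison gave 5986 raised and 2986 lowered, so that 66.7% of calls were rises in place of 52.0%, and the median over all genes moved to 0.14. Small changes, of about 0.1, thus depend on the scaling. In the same fit DMSO with PE at 48 h raised 2824 genes (21.4%) and lowered 2985 (22.6%) against the same unstimulated arrays, and JQ1 with PE against DMSO with PE raised 3957 (30.01%) and lowered 3901 (29.6%), a share of rises of 50.4% that became 65.2% with arrays centred. These comparisons share arrays, so their values are set side by side without a count of shared genes.

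The hypertrophic marker genes lay on both sides of the start. Of 29 measured, 13 were above (44.8%) and 9 below (31.0%) the unstimulated level under JQ1 with PE. The shares over all genes were 31.6% and 29.2%, so the share below was near that of all genes. The median of the list was 0.08 (0.03 over all genes), whereas DMSO with PE raised 22 and lowered 1, with a median of 0.54. Between the PE arms JQ1 lowered 21 and raised 3.

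Fhl1, a LIM domain protein that senses stretch at the sarcomere, read 13.06, 13.05 and 13.09 in unstimulated arrays, 14.13, 14.17 and 14.17 with DMSO and PE, and 14.17, 14.17 and 14.16 with JQ1 and PE. It rose 2.15-fold above the start (1.10 ± 0.034, adjusted p = 3.8e-11), and the PE arms overlapped (0.01 ± 0.034, adjusted p = 0.845). A second Fhl1 probe set, further from the top of the scale, read 9.49, 9.45 and 9.37 at the start, 11.69, 11.63 and 11.56 with PE and 11.81, 12.10 and 12.17 with JQ1 and PE. It gave a larger rise, 6.01-fold (2.59 ± 0.13, adjusted p = 3.03e-09), and PE arms that did not overlap (0.40 ± 0.13, adjusted p = 0.0179), so the size of the rise and the likeness of the PE arms depend on the probe set. Skeletal alpha-actin, Acta1, the fetal actin isoform of the heart, had 1 probe set and read 13.25, 13.27 and 13.27 at the start, 14.04, 14.06 and 14.04 with PE and 14.09, 14.04 and 14.07 with JQ1 and PE. Its rise was 0.80 ± 0.030 (adjusted p = 1.76e-10), with overlapping PE arms (0.02 ± 0.030, adjusted p = 0.591). Nppa, which encodes atrial natriuretic peptide, read 13.83, 13.90 and 13.82 at the start, 14.65, 14.63 and 14.62 with PE and 14.44, 14.45 and 14.44 with both, so that the groups were fully separate. It stood 0.60 ± 0.033 above the start and -0.19 ± 0.033 against DMSO with PE (adjusted p = 6.9e-09 and 0.000244). These levels lie close to the highest value of the table, 14.7.

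Nppb, which encodes B-type natriuretic peptide, showed no difference from the start that passed the test. It read 13.27, 13.30 and 13.26 in unstimulated cells, 14.18, 14.14 and 14.21 with PE and 13.29, 13.21 and 13.33 with JQ1 and PE, and its difference from the start was 0.00 ± 0.041 (adjusted p = 0.959). The JQ1 arrays overlapped the unstimulated arrays and lay below all arrays of DMSO with PE (-0.90 ± 0.041, adjusted p = 1.09e-09). Beta-myosin heavy chain, Myh7, lay above the start by its brightest probe set (0.11 ± 0.040, adjusted p = 0.026), against 0.50 ± 0.040 with DMSO and PE. That call was lost when only these 6 arrays were fitted (adjusted p = 0.0618) and when unstimulated replicate 2, JQ1 replicate 2 or JQ1 replicate 3 was left out (adjusted p = 0.0858, 0.108 and 0.0726). A second Myh7 probe set, away from the top of the scale, read 8.09, 7.91 and 7.94 at the start, 8.93, 9.13 and 9.30 with PE and 8.18, 8.67 and 8.62 with JQ1 and PE. It lay 0.51 ± 0.13 above the start (adjusted p = 0.00569) and -0.63 ± 0.13 against DMSO with PE (adjusted p = 0.00135). The stretch-responsive Ankrd1 was 0.14 above the start with JQ1 and 0.26 without. Hbegf, the membrane-bound precursor of a growth factor released by adrenergic signalling, read 7.08, 6.96 and 7.10, then 8.50, 8.54 and 8.55 with PE and 7.80, 7.83 and 7.82 with JQ1 and PE, and was still raised (0.77 ± 0.043). Timp1, an inhibitor of matrix metalloproteases, was 1.08 above the start with JQ1 and 0.80 without it, with separate PE arms.

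The markers that lay below the start with JQ1 and PE differed in the DMSO with PE arm. Rcan1, the feedback inhibitor of calcineurin, read 11.57, 11.49 and 11.51 at the start, 12.15, 12.07 and 12.05 with PE and 10.92, 10.91 and 11.08 with JQ1 and PE, a change of -0.56 ± 0.051 from the start (adjusted p = 8.02e-07). Ccn2, a matricellular growth factor, lay on the same sides of the start, at 0.24 with DMSO and PE and -0.35 with JQ1 and PE. So did the cytokine gene Il6, which read 6.15, 6.38 and 5.89 at the start and 4.24, 4.36 and 4.66 under JQ1, both dim or nearly so. Postn, the matrix protein periostin, was not raised by PE: 13.39, 13.36 and 13.38 at the start, 13.19, 13.20 and 13.19 with PE and 11.37, 11.42 and 11.44 with JQ1 and PE, a 3.9-fold fall. The growth factor genes Igf1 (-1.56 ± 0.040), Edn1 (-0.90 ± 0.11) and Tgfb2 (-0.80 ± 0.048) also lay below the start. In each of Rcan1, Il6 and Postn all 3 JQ1 arrays were below all 3 unstimulated arrays.

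**Figure D1:**
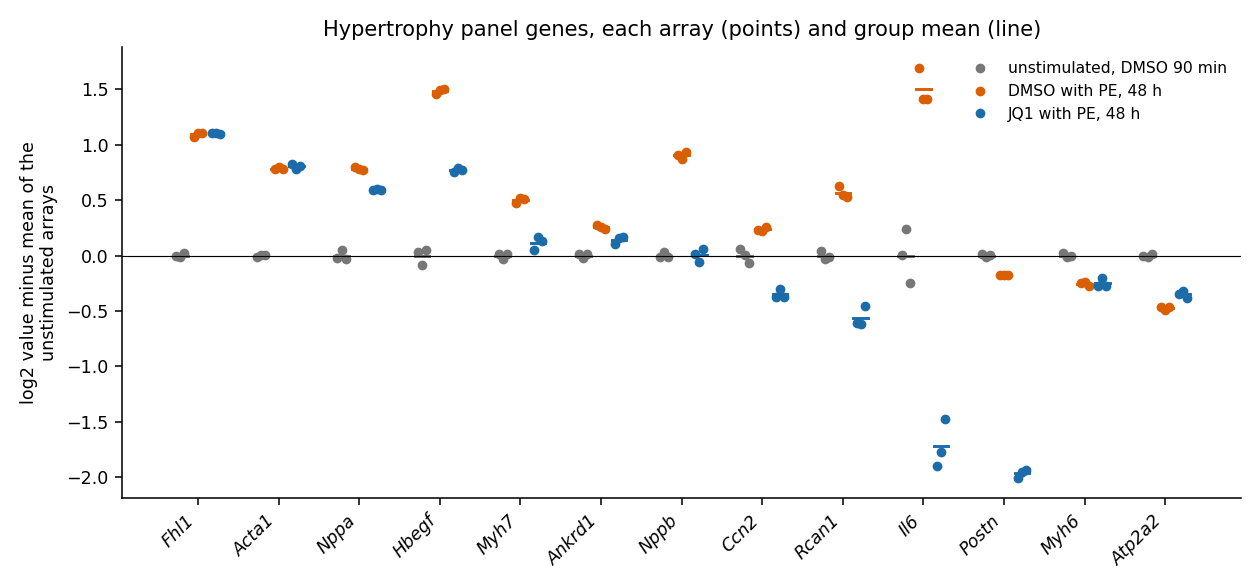
The plot shows 13 hypertrophy panel genes on the horizontal axis and, on the vertical axis, the log2 value of each array minus the mean of the unstimulated arrays, with 3 arrays and a group mean (line) for unstimulated cells, DMSO with PE and JQ1 with PE at 48 h. By the brightest probe set Fhl1 and Acta1 stand at 1.10 and 0.80 under JQ1, Nppb is at 0.00 and Postn at -1.96.

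The genes raised at least 2-fold in both PE arms with the smallest difference between them by the brightest probe set were Fhl1, Ryr3, Abca5, Gmnn, Serinc2 and Hspa1a. The ryanodine receptor gene Ryr3, a calcium release channel, read 6.88, 6.67 and 6.83 at the start, 8.07, 7.89 and 8.01 with PE and 7.92, 7.88 and 7.84 with JQ1 and PE (1.09 ± 0.058 above the start, -0.11 ± 0.058 between the arms, adjusted p = 0.13 for the latter). Gmnn, geminin, which restrains relicensing of replication origins, was 1.22 above the start with JQ1 and 1.46 without. Serinc2 was at 1.34 and 1.72, and the transporter gene Abca5 at 1.09 and 1.23. The PE arms overlapped for Ryr3 and Abca5 and not for Gmnn and Serinc2.

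Genes known to be lowered in hypertrophy were mostly below the start. Of 24 measured, 17 were lowered and 2 raised, with a median of -0.79 (0.03 over all genes) and 9 lowered at least 2-fold, against 16 lowered, 3 raised and a median of -0.31 with DMSO and PE. Between the PE arms 14 were lower and 6 higher with JQ1. Myoglobin, Mb, the oxygen store of muscle, read 12.57, 12.60 and 12.69 at the start, 11.33, 11.27 and 11.43 with PE and 9.86, 9.79 and 9.84 with JQ1 and PE, so that the 3 groups formed separate steps and the total fall was 6.9-fold (-2.79 ± 0.061, adjusted p = 2.97e-12). Kcnj11, the pore subunit of the ATP-sensitive potassium channel, fell (-2.50 ± 0.056) and its partner Abcc9 (-1.70 ± 0.062). Hrc, a calcium-binding protein of the sarcoplasmic reticulum, fell 4.87-fold. Ckmt2, the mitochondrial creatine kinase of muscle, did not pass with PE alone (-0.14 ± 0.073, adjusted p = 0.158) and fell (-2.70 ± 0.073) with JQ1, to a dim level.

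By its brightest probe set alpha-myosin heavy chain, Myh6, was -0.25 ± 0.032 from the start with JQ1 and -0.25 ± 0.032 without. The arms overlapped (0.00 ± 0.032, adjusted p = 0.938). A second Myh6 probe set, further from the top of the scale, was -0.58 ± 0.12 from the start with JQ1 and -1.05 ± 0.12 without. Its PE arms did not overlap (0.46 ± 0.12, adjusted p = 0.00644), so the likeness of the arms depends on the probe set. The sarcoplasmic reticulum calcium pump gene Atp2a2 read 14.23, 14.22 and 14.25 at the start, 13.77, 13.74 and 13.77 with PE and 13.89, 13.91 and 13.86 with JQ1 and PE, a change of -0.35 ± 0.033 from the start and a difference of 0.13 ± 0.033 between the arms. The values of Myh6 and Atp2a2 by their brightest probe sets are near the top of the scale. Other Atp2a2 probe sets above the dim limit gave -0.49, -0.19 and -0.23 from the start with JQ1. Without JQ1 the same probe sets gave -1.04, -0.44 and -0.59. Between the arms they gave 0.55, 0.25 and 0.36 (adjusted p = 1.28e-05, 0.000125 and 0.00199). The size of the Atp2a2 changes thus depends on the probe set. Tcap and Kcnj2 were the members above the start. Tcap, telethonin, which caps titin at the Z-disc, read 10.32, 10.37 and 10.33, then 11.45, 11.42 and 11.50 with PE and 12.46, 12.44 and 12.44 with JQ1 and PE, a 4.31-fold rise. Kcnj2, the inward rectifier potassium channel gene, was dim throughout (0.27 ± 0.062).

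Sarcomere genes moved in both directions. Of 27 sarcomere and Z-disc genes, 13 were raised (48.1%) and 11 lowered (40.7%), with a median of 0.00, and 5 were lowered at least 2-fold. Over all genes 31.6% were raised, 29.2% lowered and 5.55% lowered at least 2-fold. Among those raised were Des, the intermediate filament desmin (0.98 ± 0.035), Mybpc3, myosin-binding protein C (0.66 ± 0.035), Ldb3 at the Z-disc (0.61 ± 0.036, and 0.53 to 1.43 by its 4 other probe sets above the dim limit) and Actn2, alpha-actinin (0.45 ± 0.033). Myom2, which crosslinks myosin at the M-band, read 11.52, 11.41 and 11.51 at the start, 11.19, 11.20 and 11.17 with PE and 6.64, 6.60 and 7.000 with JQ1 and PE. That was a 26.5-fold fall (-4.73 ± 0.085, adjusted p = 8.38e-13), the deepest of all genes whose level under JQ1 was not dim, and nearly all of it separated the PE arms (-4.44 ± 0.085). Cardiac troponin I, Tnni3, read 13.94, 13.91 and 13.99 at the start and 12.21, 12.29 and 12.31 with JQ1 (3.19-fold lower), and the slow skeletal form Tnni1 fell (-1.40 ± 0.047). The atrial light chains Myl4 (-1.89 ± 0.047) and Myl7 (-1.38 ± 0.070) also fell.

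Calcium cycling and ion channel genes were mostly lower: 16 of 30 fell (53.3%) and 5 rose (16.7%), with a median of -0.16. The shares over all genes were 29.2% and 31.6%. The count raised was 9 with arrays centred and 3 without unstimulated replicate 2 or JQ1 replicate 3. Gja5, a connexin of atrial and conduction cells, read 10.74, 10.77 and 10.81 at the start, 9.13, 8.98 and 9.03 with PE and 7.39, 7.39 and 7.28 with both, a 10.7-fold fall in separate steps. The sodium channel subunit gene Scn4b fell (-2.21 ± 0.057) and Fxyd1, phospholemman, which regulates the sodium pump, fell (-1.73 ± 0.039) although PE alone raised it (0.37 ± 0.039). The sodium-calcium exchanger gene Slc8a1 rose (0.69 ± 0.065) but was dim both at the start and with JQ1 and PE. Of 28 cardiac transcription factors 13 were raised (46.4%) and 8 lowered (28.6%), with a median of 0.15. Over all genes 31.6% were raised and 29.2% lowered, so the share lowered was near that of all genes. Hey2 (0.76 ± 0.055), Hand2 (0.65 ± 0.038) and Nkx2-5 (0.56 ± 0.059), factors of ventricular identity and growth, were raised. Irx3, which patterns the conduction system, read 12.01, 12.05 and 11.84 at the start and 9.67, 9.72 and 9.73 with JQ1 and PE (-2.26 ± 0.059), and Tbx5 (-1.53 ± 0.046) and Hopx (-1.29 ± 0.059) also fell.

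**Figure D2:**
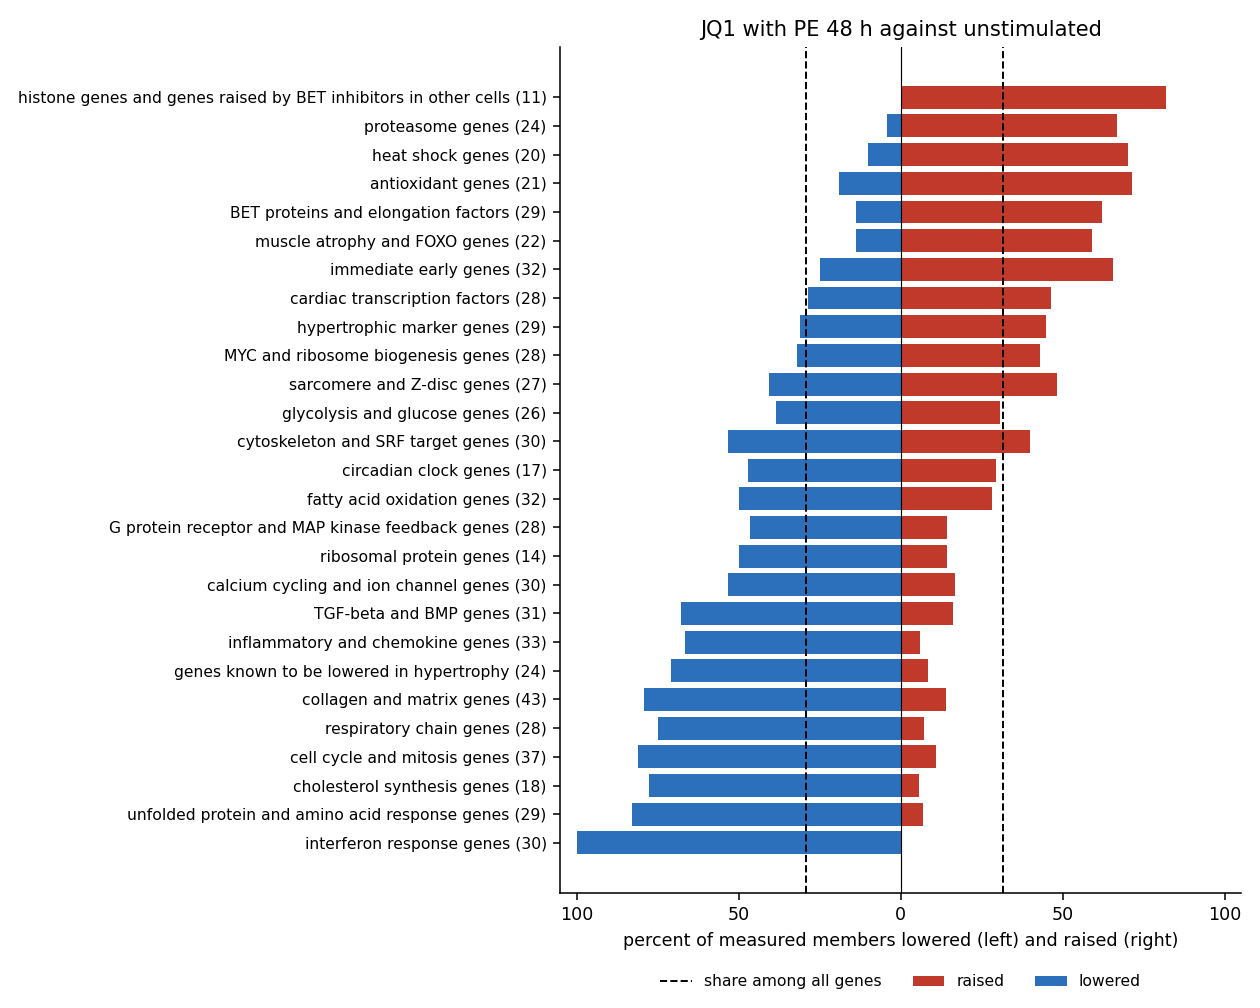
For each of 27 gene lists (measured members in brackets, vertical axis) the bars give the percent of members raised (right) and lowered (left) in JQ1 with PE at 48 h against unstimulated, and dashed lines mark the share among all genes, 31.6% raised and 29.2% lowered. All 30 interferon response genes lie on the lowered side.

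Interferon response genes lay below the start without exception. All 30 measured members fell, 23 of them at least 2-fold, with a median of -2.17, while DMSO with PE raised none, lowered 9 and gave a median of -0.21. Type I interferon induces these genes through the factor complex ISGF3, which binds the interferon-stimulated response element (ISRE), and they make antiviral effectors and antigen processing proteins. Isg15, a ubiquitin-like modifier, read 11.02, 11.45 and 11.74 at the start, 11.27, 11.39 and 10.91 with PE and 6.91, 7.26 and 7.65 with JQ1 and PE. The unstimulated and DMSO with PE arrays overlapped (-0.21 ± 0.21, adjusted p = 0.468) and the JQ1 arrays lay below all of them, 17.5-fold under the start (-4.13 ± 0.21, adjusted p = 3.69e-09). Usp18, the protease that removes ISG15 from its targets, read 10.73, 11.06 and 11.31 at the start and 7.06, 7.51 and 7.83 with JQ1 (11.8-fold lower). Bst2, tetherin, which holds budding virus at the cell surface, fell 10.2-fold.

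The other members covered the sensors, effectors and factors of the pathway. Rtp4 (-4.17 ± 0.15), Ifi44 (-3.66 ± 0.13) and Mx2 (-4.25 ± 0.23) fell to dim levels. Ifit2, an RNA-binding effector, fell (-2.64 ± 0.11) and Ifi27 (-1.78 ± 0.045). Irf7, the factor that amplifies interferon production, fell (-2.85 ± 0.16), and Irf9, the DNA-binding subunit of ISGF3 (-1.45 ± 0.090). The immunoproteasome subunit genes Psmb8 (-2.27 ± 0.13) and Psmb9 (-1.95 ± 0.097) and the peptide transporter gene Tap1 (-1.50 ± 0.080) were lower too. The smallest falls were those of Irf1 (-0.24 ± 0.039) and B2m (-0.20 ± 0.032). The guanylate-binding protein genes Gbp7 (14.5-fold) and Gbp4 (-4.43 ± 0.15, to a dim level), the helicase gene Ddx60 (-4.38 ± 0.24, to a dim level) and the chemokine gene Cxcl11 (10.5-fold), all outside the list, were among the deepest falls of the comparison. The mean log2 value over the list was between 8.96 and 9.31 in the unstimulated arrays, 8.72 and 9.03 with DMSO and PE, and 6.92 and 7.01 with JQ1 and PE. For all 30 genes the JQ1 arrays lay below all unstimulated arrays. Over all genes the arrays of these groups did not overlap, in either direction, for 65.9%.

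**Figure D3:**
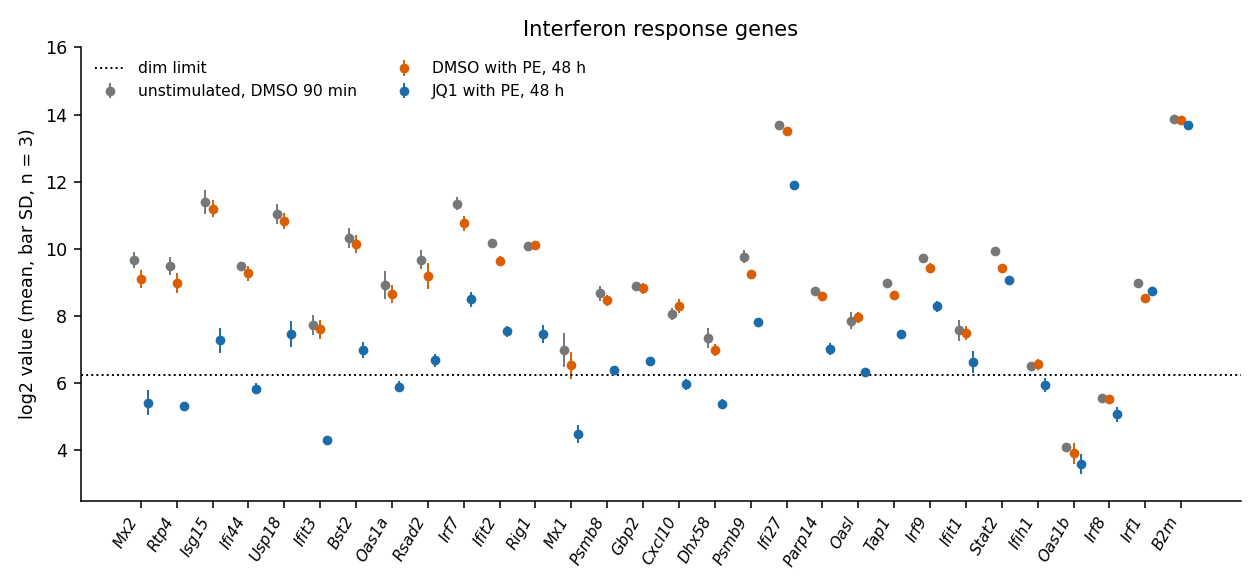
Mean log2 values (points) with SD (bars, 3 arrays) of the 30 interferon response genes, ordered along the horizontal axis by their change from unstimulated to JQ1 with PE at 48 h. The unstimulated and DMSO with PE points lie close together for most genes, and the JQ1 points lie below the unstimulated ones for all 30, under the dim limit of 6.23 for 11 of them.

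Promoter windows of RefSeq (GRCr8, 250 bases before to 50 after each gene's start, 1 window a gene) were available for 22 of these 30 genes. The core of the ISRE, GAAANNGAAA or TTTCNNTTTC on the other strand, occurred in 15 of the 22 (68.2%), against 3.01% of the measured genes with a window and 3.77% of all windows. This motif was added after the values had been seen. Of the genes lowered at least 2-fold 9.24% held it, and of those raised at least 2-fold 3.97%. The stretches below are from the list members with a match that fell most, written in the direction of the gene with the matches in capitals. They show how close to the start of the gene the core lies.
Ifi44 (chr2:243303817-243303906, minus strand): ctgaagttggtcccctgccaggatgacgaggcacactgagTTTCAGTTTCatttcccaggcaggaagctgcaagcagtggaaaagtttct
Ifit3 (chr1:241527242-241527331, plus strand): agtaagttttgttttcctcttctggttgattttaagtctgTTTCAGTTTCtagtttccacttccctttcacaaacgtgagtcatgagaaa
Bst2 (chr16:18255049-18255138, minus strand): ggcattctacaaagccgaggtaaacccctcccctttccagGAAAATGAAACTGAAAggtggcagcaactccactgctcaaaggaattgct
Oas1a (chr12:41330385-41330474, plus strand): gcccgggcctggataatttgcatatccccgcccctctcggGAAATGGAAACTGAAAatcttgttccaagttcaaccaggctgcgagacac
The first match, and in Ifi44 and Ifit3 the match shown, begins 26 bases before the gene start in Ifi44, 44 in Ifit3, 131 in Bst2 and 41 in Oas1a, and in Bst2 and Oas1a overlapping matches run together. A second match in Ifi44 lies past the gene start, outside the stretch. Their changes were -3.66 ± 0.13, -3.43 ± 0.18, -3.34 ± 0.16 and -3.01 ± 0.21. A match of letters is a description of the window and shows no binding.

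Inflammatory and chemokine genes were lower as well, with 22 of 33 lowered, 2 raised and a median of -0.74, whereas DMSO with PE raised 17 and lowered 8. Ccl2, which attracts monocytes, read 13.16, 13.11 and 13.16 at the start, 13.40, 13.44 and 13.45 with PE and 11.39, 11.29 and 11.35 with JQ1 and PE, a 3.49-fold fall below the start. Ccl7 (-1.90 ± 0.071) and Ccl20 (-1.93 ± 0.096) also lay below the start with JQ1 and PE. In the DMSO with PE arm they lay above it (0.97 ± 0.071 and 0.82 ± 0.096). The chemokine gene Cxcl12 fell under both treatments, -0.68 and -1.11. Olr1, a scavenger receptor for oxidised lipoprotein, was above its dim start (0.92 ± 0.12), less so than with PE alone (1.81 ± 0.12), and Ptgs2 was the other member raised (0.31 ± 0.10). Leukocyte markers were below the start too: 11 of 17 fell and none rose. Their summed linear signal was 2153 to 2314 at the start, 1690 to 1788 with PE and 1190 to 1279 with JQ1 and PE. In these groups 10, 10 and 11 members were dim. DMSO with PE lowered 9 of these markers and raised none, unlike the inflammatory and chemokine genes. Between the PE arms JQ1 lowered 5 of the 17 markers and 26 of the 33 inflammatory and chemokine genes, and raised none of either. Lyz2 fell (-1.39 ± 0.081) and Cd14 (-1.56 ± 0.078). Their part in the result was not tested. In such bulk samples fewer cells of a type and less RNA per cell cannot be told apart.

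Matrix genes and fibroblast markers were far below the start. Of 43 collagen and matrix genes, 34 fell and 6 rose, with a median of -0.94 and 20 lowered at least 2-fold, while DMSO with PE lowered 19 and raised 9, with a median of -0.08. Ogn, osteoglycin, a small leucine-rich proteoglycan, read 11.29, 11.38 and 11.43 at the start, 10.60, 10.61 and 10.55 with PE and 7.68, 7.95 and 7.91 with JQ1 and PE, a 11.5-fold fall. Tenascin C, Tnc, a matrix protein of injured tissue, read 10.55, 10.51 and 10.52 at the start and 7.41, 7.34 and 7.33 with JQ1 (8.99-fold lower). Both genes had JQ1 arrays far below the other groups. The collagen crosslinking enzyme gene Lox fell (-2.29 ± 0.065), elastin, Eln (-2.13 ± 0.098) and the proteoglycan gene Dcn (-1.53 ± 0.043).

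Among the fibrillar collagens the changes were -1.26 ± 0.041 for Col1a1, -1.48 ± 0.059 for Col3a1 and -0.53 ± 0.034 for Col1a2. The basement membrane collagens Col4a1 (0.17 ± 0.037) and Col4a2 (0.12 ± 0.046) and the collagen gene Col18a1 (0.56 ± 0.053) were among the 6 raised, with Timp1, Mmp3 and Plod2. Further matrix genes outside the list were among the deepest falls: Ccn5 (14.4-fold), a matricellular protein, Fndc1 (12.1-fold) and Aspn, asporin, which fell to a dim level from 8.98, 9.08 and 8.84 to 4.23, 3.73 and 4.04. Fibroblast markers moved with these genes: 16 of 18 fell and none rose, with a median of -1.43, and their summed linear signal was 69457 to 70921 at the start, 58092 to 58959 with PE and 34967 to 36028 with JQ1 and PE. The lists share 7 genes, Col1a1, Col1a2, Col3a1, Col6a3, Dcn, Lum and Postn. Pdgfra, the receptor that marks cardiac fibroblasts, read 9.89, 9.96 and 10.05, then 9.29, 9.21 and 9.23 with PE and 7.58, 7.42 and 7.59 with JQ1 and PE, and Dpt fell (-3.01 ± 0.049) and Mfap5 (-3.73 ± 0.076, to a dim level). Tcf21, a fibroblast transcription factor, fell (-0.56 ± 0.056), Vim, which many cell types express, fell (-0.27 ± 0.032), and Thy1 did not pass (-0.06 ± 0.083, adjusted p = 0.554). At the start 1 of the 18 markers was dim and with JQ1 and PE 5 were, Tcf21, Fap, Mfap5, Mfap4 and Col6a3. Their part in the falls of the matrix genes was not tested.

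**Figure D4:**
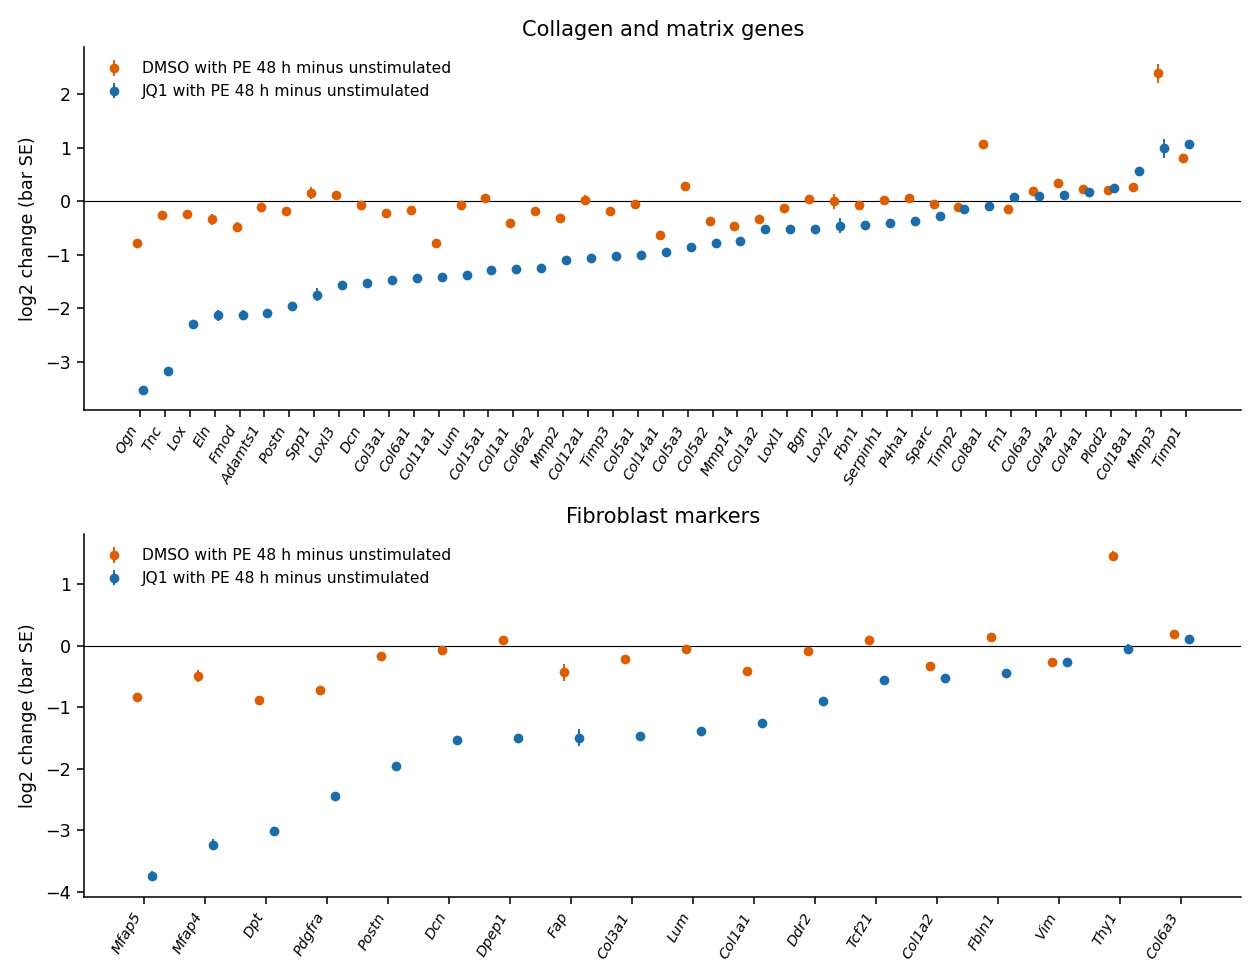
Log2 changes from unstimulated (vertical axis, bars SE) of 43 collagen and matrix genes (upper panel) and 18 fibroblast markers (lower panel) in DMSO with PE and JQ1 with PE at 48 h, ordered by the latter. Most points of DMSO with PE lie near 0 and most of JQ1 with PE below it, down to -3.52 for Ogn and -3.73 for Mfap5.

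Ligands, receptors and antagonists of the TGF-beta and BMP families followed: 21 of 31 fell and 5 rose, with a median of -0.39. Grem1, gremlin, a secreted BMP antagonist, read 8.23, 8.35 and 8.16 at the start, 10.44, 10.39 and 10.28 with PE and 5.79, 5.66 and 5.88 with JQ1 and PE. It lay 4.35-fold above the start with DMSO and PE, and with JQ1 and PE it lay 5.54-fold below the start, at a dim level. Acvrl1, a BMP receptor of the TGF-beta family, fell to a dim level (-2.78 ± 0.095), Ltbp2, a binding protein of the matrix (-1.60 ± 0.059) and Fstl3, an activin antagonist (-0.97 ± 0.035). Bmp7, a BMP ligand, rose (0.96 ± 0.055) with JQ1 and 0.80 ± 0.055 without.

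Grem1 was 1 of 6 genes picked for the size of a rise with PE together with a fall below the start under JQ1, so these values describe the choice. Wfdc1, a secreted protease inhibitor family member, read 8.47, 8.45 and 8.41 at the start, 10.89, 10.82 and 10.92 with PE and 6.38, 6.33 and 6.35 with JQ1 and PE. Pla2g5, a secreted phospholipase, rose little with PE (0.23 ± 0.061) and fell 16.6-fold below the start. Lgals9, a galectin, was 0.85 above the start with DMSO and PE and at -2.93 from it, a dim level, with JQ1 and PE. Esm1, an endothelial proteoglycan, rose from a dim level with PE (2.62 ± 0.15) and was lower than that level with JQ1 (-0.998 ± 0.15). Aspn completed the 6 (0.37 and -4.97). In all 6 the 3 groups of arrays did not overlap.

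Most cell cycle genes lay below the starting level with JQ1 and PE and above it with DMSO and PE. Of 37, 30 were below it and 4 above it with JQ1 and PE, with a median of -0.59, whereas DMSO with PE raised 36 and lowered none, with a median of 1.03. JQ1 lowered 35 and raised none between the PE arms, 28 of them at least 2-fold. Cyclin D1, Ccnd1, which drives entry into the cycle, read 10.91, 10.81 and 10.69 at the start, 11.57, 11.43 and 11.53 with PE and 8.87, 8.80 and 8.85 with JQ1 and PE, 3.89-fold below the start (-1.96 ± 0.065, adjusted p = 6.46e-11). Racgap1, a cytokinesis regulator, read 8.97, 8.97 and 8.997, then 10.18, 10.17 and 10.21 with PE and 7.87, 7.91 and 7.83 with both. In both genes the 3 groups were separate, with the JQ1 arrays lowest.

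Prc1, which bundles spindle microtubules, was at 1.50 with DMSO and PE and at -0.84 with JQ1 and PE. The replicative helicase gene Mcm6 was at 0.62 and -0.94. Mki67, the proliferation marker, was at -0.78 and Top2a, a mitotic topoisomerase, at -0.83. The 4 members above the start were factors of the G1 phase and of replication: Pcna (0.37 ± 0.032), E2f1 (0.33 ± 0.043), Ccne1 (0.25 ± 0.037) and Ccnd3 (0.11 ± 0.039). The summed fibroblast markers, given above, fell with PE alone, where cell cycle genes rose, and fell further with JQ1, and their part in these falls was not tested. The promoter windows of 29 of the 37 genes were at hand, and 22 of them (75.9%) held CCAAT, against 37.4% of the measured genes.

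**Figure D5:**
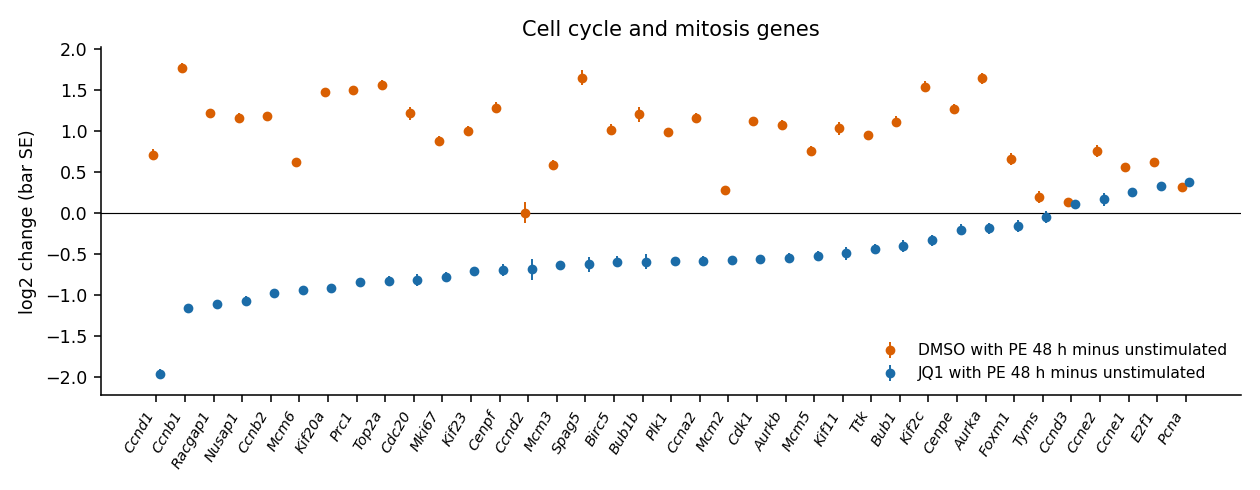
Log2 changes from unstimulated (vertical axis, bars SE) of 37 cell cycle and mitosis genes in DMSO with PE and in JQ1 with PE at 48 h, ordered by the latter. Almost all points of DMSO with PE lie above 0, and 30 genes were lowered with JQ1 and PE, down to -1.96 for Ccnd1.

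Respiratory chain genes lay modestly below the start. Of 28 respiratory chain genes, 21 fell and 2 rose (Cox5a and Ndufs4), none by 2-fold, with a median of -0.20. Sdha, a subunit of succinate dehydrogenase, read 12.89, 12.86 and 12.89 at the start and 12.26, 12.33 and 12.36 with JQ1 and PE (-0.56 ± 0.035), and the complex I genes Ndufs3 (-0.46 ± 0.034) and Ndufs1 (-0.40 ± 0.034) fell. With arrays centred on their medians 14 fell and 5 rose, and 1 rose in each of the 6 fits that left out 1 array. Of 32 fatty acid oxidation genes, 16 fell and 9 rose, with a median of -0.08, and 14 rose with arrays centred. DMSO with PE lowered more of them, 22, and raised 3, with a median of -0.18. Between the PE arms JQ1 raised 14 and lowered 9, with a median of 0.07. Cpt1b, the muscle enzyme that admits fatty acids to mitochondria, read 10.35, 10.06 and 10.20 at the start, 9.54, 9.43 and 9.46 with PE and 8.29, 8.35 and 8.40 with both (3.62-fold lower). Pdk4, which restrains glucose oxidation, rose (1.10 ± 0.077), from 8.43, 8.46 and 8.51 to 9.54, 9.58 and 9.57, with no call for PE alone (0.08 ± 0.077, adjusted p = 0.437).

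Of 26 glycolysis genes 10 were lowered (38.5%) and 8 raised (30.8%), shares near those over all genes (29.2% and 31.6%). Pgam2, the muscle phosphoglycerate mutase, fell 6.1-fold, Slc2a4, the insulin-responsive glucose transporter (-1.22 ± 0.054), and Pfkl, the liver-type phosphofructokinase, rose (0.79 ± 0.058). Aldoc, a brain-type aldolase, read 11.78, 11.93 and 11.95 at the start, 9.38, 9.36 and 9.38 with PE and 10.92, 10.97 and 11.06 with JQ1 and PE, so that it lay between the other groups. Of 18 cholesterol synthesis genes 14 fell and only Idi1 rose (0.30 ± 0.035), with a median of -0.27, while PE alone raised 15 and lowered none. Msmo1, a sterol oxidase, fell (-0.94 ± 0.051). Of 29 genes of the unfolded protein and amino acid responses 24 fell and 2 rose, with a median of -0.40. DMSO with PE also lowered 17 of them and raised 3, with a median of -0.17. Between the PE arms JQ1 lowered 21 and raised 3. Phgdh, the entry enzyme of serine synthesis, fell 3.53-fold, from 10.97, 10.94 and 10.92 to 9.14, 9.19 and 9.03. Xbp1, a factor of the unfolded protein response, fell (-0.98 ± 0.035), and Ddit3, a stress-induced factor, rose (0.86 ± 0.044).

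Rises of at least 2-fold were fewer than such falls. Nap1l5, of the nucleosome assembly protein family, read 8.04, 8.17 and 7.91 at the start, 9.08, 8.98 and 9.06 with PE and 10.71, 10.76 and 10.76 with JQ1 and PE, a 6.53-fold rise (2.71 ± 0.059, adjusted p = 2.97e-12). Entpd5, a nucleotide hydrolase of the endoplasmic reticulum, was 4.5-fold above the start, and the vesicle GTPase gene Rab26 4.19-fold. H2ax, a histone variant of the DNA damage response, rose 3.63-fold, Gdf11, a TGF-beta family ligand, 3.56-fold, Khk, ketohexokinase, 3.14-fold, and E2f5, a cell cycle factor, 3.02-fold. Nupr2 rose 3.7-fold with no call for PE alone. From dim starting levels the photopigment gene Opn4 (2.07 ± 0.098), the proton pump subunit gene Atp6v1c2 (2.06 ± 0.090), the secretory chaperone gene Scg5 (1.98 ± 0.078) and Pgbd5 (1.83 ± 0.12) rose. Pgbd5 was still dim with JQ1 and PE. All 12 genes with the largest rises from levels above the dim limit, Tcap, Hspa1a, Brd2 and Nudt6 among them, had JQ1 arrays wholly above the unstimulated ones, as the choice required.

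The genes of the BET proteins and of elongation control were mostly higher: of 29 measured, 18 rose and 4 fell (median 0.22), and DMSO with PE raised 4 and lowered 13. Brd2, a BET protein and itself a target of the inhibitor, read 9.44, 9.38 and 9.37 at the start, 9.17, 9.22 and 9.12 with PE and 11.37, 11.29 and 11.35 with JQ1 and PE, a 3.84-fold rise from the start (1.94 ± 0.048, adjusted p = 7.67e-12). A second, dim probe set of Brd2 rose 0.46. Hexim1, which inhibits P-TEFb and is known to rise under BET inhibitors in many cells, read 11.17, 11.12 and 11.06, then 11.04, 10.99 and 11.07 and 12.64, 12.64 and 12.69 with JQ1 (2.91-fold higher). Unstimulated and PE arrays overlapped for Hexim1, and the JQ1 arrays lay above both. Its relative Hexim2 fell (-1.07 ± 0.052), while Polr2a, the largest subunit of RNA polymerase II (0.98 ± 0.050), and Paf1, of the elongation complex of that name (0.67 ± 0.034), rose and Brd3 was near the start (-0.03 ± 0.053, adjusted p = 0.607). Of 11 genes that BET inhibition is known to raise elsewhere, histone genes included, 9 rose and none fell, with a median of 0.82. They included the histone gene H3c1 (1.55 ± 0.11, from a dim level), the polyamine enzyme gene Sat1 (1.11 ± 0.059), Txnip (0.82 ± 0.052) and Hist2h2be (0.98 ± 0.064). Histone genes are near-identical copies, so probe sets for them may read more than 1.

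Protein quality control and antioxidant genes were mostly above the start too, and their courses with PE alone differed. Of 20 heat shock genes 14 rose and 2 fell (Hspb3 and Hspa9), with a median of 0.49. DMSO with PE raised 15 of them and lowered 2, with a median of 0.25. The inducible chaperone gene Hspa1a read 7.89, 7.95 and 8.08 at the start, 9.70, 9.53 and 9.56 with PE and 9.94, 9.98 and 10.02 with JQ1 and PE, so that most of its 4.02-fold rise was also seen with PE alone (1.63 ± 0.062). The small heat shock protein genes of muscle Hspb6 (1.52 ± 0.041) and Hspb7 (1.05 ± 0.048) rose, and Hspb3, also of muscle, rose with PE (0.97 ± 0.034) and fell below the start with JQ1 (-1.13 ± 0.034). Of 21 antioxidant genes 15 rose and 4 fell, with a median of 0.21, whereas DMSO with PE raised 3 and lowered 11. Gclc, the rate-limiting enzyme of glutathione synthesis, rose (1.31 ± 0.055) and the quinone reductase gene Nqo1 (0.69 ± 0.046), whereas the glutathione transferase gene Gstm1 fell (-1.26 ± 0.049). Of 24 proteasome genes 16 rose, by 0.08 to 0.45, and Psma6 fell (-0.09 ± 0.033), while DMSO with PE raised 7 and lowered none. The Psma6 call was lost with only these 6 arrays and in 5 of the 6 fits that left out 1 array.

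Muscle atrophy and FOXO genes gave 13 of 22 raised and 3 lowered, with a median of 0.27, where PE alone raised 1 and lowered 16. Txnip, Bnip3l, a mitophagy receptor (0.67 ± 0.042), and Ulk1, the kinase that starts autophagy (0.74 ± 0.054), lay below the start with PE alone (-0.63, -0.34 and -0.75). The ubiquitin ligase genes that define atrophy did not pass: Fbxo32 was at 0.30 ± 0.15 (adjusted p = 0.107) and Trim63 at -0.06 ± 0.035 (adjusted p = 0.136). Trim54, a ligase of the same family that sits on the sarcomere, read 11.82, 11.71 and 11.75 at the start, 11.23, 11.18 and 11.20 with PE and 7.97, 8.04 and 7.999 with JQ1 and PE, a 13.5-fold fall. JQ1 arrays lay far below both other groups for Trim54.

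A further 6 genes were picked for a fall with PE together with a rise above the start under JQ1, so these values describe the choice: Nudt6, Brd2, Fscn2, Flrt3, Mturn and Smtnl2. Nudt6 read 7.54, 7.40 and 7.33 at the start, 6.76, 6.58 and 6.63 with PE and 9.08, 9.10 and 9.15 with both (3.22-fold above the start). It overlaps the growth factor gene Fgf2 on the opposite strand, and Fgf2 was at 0.08 ± 0.094 (adjusted p = 0.513). Flrt3, an adhesion protein, read 7.62, 7.68 and 7.65, then 6.30, 6.23 and 6.02 and 8.06, 8.15 and 8.16. Smtnl2 was at -1.46 with DMSO and PE and 0.39 with JQ1 and PE, and Mturn at -0.52 and 1.41. Fscn2, a fascin, was at -0.53 and 1.59 with a dim start.

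Immediate early genes, the first transcriptional wave after a stimulus, were more often above than below the start at 48 h in both PE arms. Of 32 measured, JQ1 with PE raised 21 (65.6%) and lowered 8 (25.0%), with a median of 0.35. DMSO with PE raised 20 and lowered 5 (median 0.19). For JQ1 with PE the shares over all genes were 31.6% and 29.2%, so the share lowered was near that of all genes. Junb, an AP-1 subunit, read 8.04, 7.84 and 8.002 at the start, 7.82, 7.90 and 7.87 with PE and 8.81, 8.79 and 8.90 with JQ1 and PE (0.87 ± 0.052), and Jund (0.63 ± 0.047) and Ier2 (0.86 ± 0.051) were raised too. Klf4, a zinc finger factor, fell (-0.92 ± 0.055). Myc fell (-0.36 ± 0.078, adjusted p = 0.00134). The list of MYC and ribosome biogenesis genes had 12 of 28 raised (42.9%) and 9 lowered (32.1%), with a median of -0.01. The shares over all genes were 31.6% and 29.2%, so the share lowered was near that of all genes. Nop56 (0.41 ± 0.043) and Bop1 (0.41 ± 0.049), of nucleolar complexes, rose and Utp20 fell (-0.59 ± 0.059).

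Receptors and brakes of the hypertrophic pathway were more often lowered than raised. Of 28 G protein receptor and MAP kinase feedback genes 13 fell and 4 rose, with a median of -0.13. Adra1b, an alpha1-adrenergic receptor that PE activates, read 11.02, 10.998 and 11.08 at the start, 9.39, 9.26 and 9.39 with PE and 8.90, 8.998 and 8.98 with JQ1 and PE, so that most of its 4.21-fold fall was seen with PE alone (-1.69 ± 0.052). Adra1d fell (-2.91 ± 0.10) to a dim level and Adra1a, dim throughout, was at -0.09 ± 0.11 (adjusted p = 0.548). Ptprr, a phosphatase of MAP kinases, lay below the start in both PE arms. It was at -1.49 with DMSO and PE and, lower and dim, at -4.34 with JQ1 and PE, and the groups of arrays were separate. Rgs3, which shortens G protein signals, fell (-1.89 ± 0.051), and Dusp2, a nuclear MAP kinase phosphatase, rose from a dim level (0.68 ± 0.057).

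Genes of the cytoskeleton and of its regulator, serum response factor (SRF), which binds the CArG box and couples actin dynamics to transcription, moved in both directions. Of 30, 16 fell and 12 rose, with a median of -0.31, while PE alone raised 20 and lowered 2. The smooth muscle genes Mylk (-1.38 ± 0.083), Myl9 (-0.90 ± 0.044) and Acta2 (-0.69 ± 0.055) fell, as did Tgfb1i1 (-0.65 ± 0.034) and the tubulin gene Tubb2a (-1.02 ± 0.035), and Fhl1 and Acta1 rose. Of 15 smooth muscle and pericyte markers 11 fell and Des alone rose, and their summed linear signal was 20880 to 21890 at the start, 25140 to 25820 with PE and 21306 to 22322 with JQ1 and PE. Without Des, which is also a cardiomyocyte marker, the sum was 15985 to 16884, 17355 to 17664 and 11510 to 12595. Their part in the falls was not tested. A CArG box was found in the windows of 6 of 27 list genes (22.2%) and of 1.33% of measured genes. The list was drawn up in part from known targets of SRF, so this share is no result about these data. Acta1 and Fhl1, marker genes above the start in both PE arms, were picked for display. Genes with a box that fell were not looked for. The stretches are shown in the direction of the gene with the box in capitals.
Acta1 (chr19:68784239-68784328, minus strand): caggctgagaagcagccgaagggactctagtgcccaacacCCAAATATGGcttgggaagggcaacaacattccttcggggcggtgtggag
Fhl1 (chrX:139638354-139638443, plus strand): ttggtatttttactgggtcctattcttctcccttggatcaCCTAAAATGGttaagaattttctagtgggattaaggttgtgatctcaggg
The box begins 94 bases before the gene start in Acta1 and 102 in Fhl1. Such a match of letters shows no binding, and a part of SRF in these changes was not tested.

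Over the promoter windows of genes raised or lowered at least 2-fold, the shares holding short promoter motifs were as follows. GGGCGG, the core of an Sp1 site, was in 70.6% of 126 windows of raised genes, 46.2% of 552 windows of lowered genes and 58.2% of the windows of measured genes. TGACGT, which is part of the cAMP response element, was in 14.3%, 4.17% and 10.8%. TATAAA was in 12.7% of raised, 13.0% of lowered and 8.35% of measured genes, and CCAAT in 43.7%, 30.1% and 37.4%. Both strands were searched and no test was made.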

How the data were processed

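The values analysed are the deposited log2 expression values, 1 per probe set and array of an Affymetrix rat array hybridised with biotin-labelled RNA, per the labels' protocols. The submitters' processing notes name limma without a role, and how the authors summarized and normalized the arrays is not given in the sources used here. Values ran from 2.71 to 14.7, from which the scale was read. Of 20223 probe sets, 18510 had 1 gene symbol, 305 several and 1402 none, and 6 were controls. Symbols were updated through the RefSeq gene table (18461 by gene identifier, 1 by accession, 48 kept), and each of 13184 genes was read from its brightest probe set. limma 3.58.1 in R 4.3.3 was fitted to all 14 arrays (9 residual degrees of freedom, median SE 0.0604), with Benjamini-Hochberg adjustment over all genes. On simulated data for this comparison 74% of genes changed 1.25-fold, 88% of those changed 1.5-fold and 100% of those changed 2-fold were recovered. Of the calls 5.24% were false. The simulation changed only a small part of the genes, with independent normal spread. Far more genes were called in the data, so the recovery there can differ. The number of arrays limits the precision.

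Genes named with their arrays were the 12 raised and 12 lowered most without overlap and the 4 of each at dim levels, up to 4 members of a list in its majority direction and 1 in the other by adjusted p, a panel of known genes, and 3 sets of 6 chosen on the course over the groups. The comparison, lists and panel were chosen with earlier results of these data known. Alternatives were the average of a gene's probe sets, arrays centred on medians, repeated quantile normalization, no dim genes, only the groups compared, eBayes with trend and robust settings, a replicate block, leaving out each array, and a 1.5-fold threshold for motifs. Further probe sets of a gene, adjusted over all probe sets, and the smooth muscle sum without Des were added after the values were seen.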

Additional observations from a re-analysis of the deposited data

How the results depend on the processing

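All 8 counts of raised and lowered genes stayed within 1.5 times under every alternative run. Leaving out 1 array gave 3832 to 3971 genes raised and 3654 to 3705 lowered against unstimulated, and 148 to 167 raised and 723 to 745 lowered at least 2-fold. The replicate numbers of the titles did not pair the arrays (correlations of same-numbered deviations 0.01, -0.11 and -0.04), and with the replicate number as a block 4082 genes were raised and 3782 lowered. Of the named genes, the change of Slc4a1 turned to -0.10 with the average of its probe sets and that of Psma6 to 0.024 with arrays centred on their medians, and both were then no longer past the threshold. Nppb passed only with arrays centred (0.11, adjusted p = 0.0446). At 1.5-fold the motif shares of lowered genes moved to 9.99% for TATAAA, 53.5% for GGGCGG, 6.35% for TGACGT and 6.01% for the ISRE core. The cause of these changes was not tested.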

Other observations

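Further gene groups and cell type markers are set beside the shares over all genes, 29.2% lowered and 31.6% raised. The shares lowered and raised were 47.1% and 29.4% of circadian clock genes and 35.7% and 14.3% of endothelial markers. Of 17 circadian clock genes 8 fell and 5 rose, and 9 rose with arrays centred on their medians, with Per2, a repressor of the clock, at -0.93 ± 0.049 (-0.05 ± 0.067, adjusted p = 0.553, by a second probe set), Bhlhe41 at -0.72 ± 0.057 and Nfil3, a repressor of the output genes, at 0.59 ± 0.070, while Clock (0.13 ± 0.089, adjusted p = 0.24) and Bmal1 (0.07 ± 0.048, adjusted p = 0.259), the activators, did not pass. Of 14 ribosomal protein genes 7 fell and 2 rose, all by less than 0.33, and with that centring 1 fell and 5 rose, so no direction is given for them. Of 14 endothelial markers 5 fell and 2 rose, their summed linear signal was 1544 to 1602 at the start and 1187 to 1197 with JQ1 and PE, and Kdr, a receptor for vascular endothelial growth factor, fell to a dim level (-1.66 ± 0.12). Of 11 Schwann cell and neuron markers 5 fell and Tubb3 rose, and their sum was 3217 to 3424 at the start and 2129 to 2236 with JQ1 and PE. Of 9 epicardial and mesothelial markers 6 fell and none rose, with Krt18 at -1.21 ± 0.11, and of 6 erythroid markers, 5 of them dim at the start, 2 fell and Slc4a1 rose. The Slc4a1 call was lost without unstimulated replicate 3 (adjusted p = 0.0723) or JQ1 replicate 2 (adjusted p = 0.0992), and a second, dim probe set fell (-0.45 ± 0.14, adjusted p = 0.0172).

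The 6 h arrays, which are outside the comparison, show where some of these genes stood earlier under JQ1 and PE. Myom2 read 9.55, 9.61 and 9.48 at 6 h and Isg15 9.74, 9.49 and 9.21, above their levels at 48 h. Nap1l5 read 10.17, 10.09 and 10.07 and Brd2 11.66, 11.65 and 11.57. Acta1 read 14.34, 14.32 and 14.34 and Nppb 14.002, 14.004 and 14.04, above the unstimulated arrays, and for Nppb the 6 h vehicle arrays with PE read 13.999 and 13.89. Grem1 read 6.89, 6.92 and 6.89 with JQ1 and 9.30 and 9.10 with DMSO.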
